A study of Homo sapiens with 6 samples.

Results

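Genes of protein entry into the endoplasmic reticulum (ER) and of vesicle coats between the ER and the Golgi were examined in QBC-939 cells, a human cholangiocarcinoma (bile duct cancer) line per the labels. Members were the rows whose names begin as SEC followed by a number from the teens to the sixties, TMED, COP, SPCS, SSR, KDELR or SAR1, without hyphenated names and names ending in P plus digits. This gave 60 members of 27238 named rows, of which 51 reached a mean of 1 FPKM (fragments per kilobase of transcript, scaled to the mapped fragments of the library) and were tested. The name rule also asks for the SRP genes, but its suffix clause removes all 6 of them (SRP9, SRP14, SRP19, SRP54, SRP68 and SRP72), because their own names end in P and a number. They are described beside the members and stay out of the members' counts. The other 14 names dropped by the hyphen and suffix clauses are antisense, readthrough and pseudogene rows.

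Control cells had received a scrambled shRNA and the compared cells an shRNA against BMI1, each for 48 h, with 3 libraries a group described as separate transfections of the same line. BMI1 is a subunit of Polycomb repressive complex 1, which silences developmental genes. BMI1 itself measured 6.02 ± 0.659 FPKM in control and 1.78 ± 0.770 FPKM with Bmi1 shRNA (SD, n = 3 each; limma, adjusted p = 0.00162), which was 29.5% of control. The FPKM of a library summed to between 332910 and 360371, and because the sources used here give no read depth, values carry no counting interval. All 7 biliary markers given here (among them KRT7, KRT19, SOX9 and EPCAM) had a mean of at least 1 FPKM, and their summed level was 479.7 to 494 FPKM in control and 404 to 459 FPKM with Bmi1 shRNA. Of 7 intestinal markers with a row 3 did (VIL1, LGALS4 and KRT20), with sums of 572 to 575 FPKM and 729 to 754 FPKM. Of 5 hepatocyte markers 3 did (TTR, SERPINA1 and HNF4A), with sums of 158 to 168 FPKM and 229 to 241 FPKM. The 3 fibroblast markers summed to at most 0.445 FPKM in any library, and of 3 leukocyte markers CD68 was the one that reached 1 FPKM (sums of 11.8 to 12.98 FPKM and 7.73 to 9.27 FPKM). Of 2 adipocyte markers with a row CIDEC reached 1 FPKM, and their sum was 1.57 to 1.98 FPKM in control and 1.23 to 1.37 FPKM with Bmi1 shRNA. The sums of the biliary, intestinal, hepatocyte, leukocyte and adipocyte markers did not overlap between the groups, those of the fibroblast markers did, and their part in the results was not tested. From bulk RNA, fewer cells of a type and less RNA per cell cannot be told apart.

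Proteins that are secreted or sit in membranes enter the ER while they are made. The signal recognition particle (SRP) brings the ribosome to the membrane, the SEC61 channel passes the chain through, the TRAP complex assists it and signal peptidase cuts off the signal sequence. Cargo then leaves the ER in vesicles coated by COPII, whose assembly starts with the GTPase SAR1, and the COPI coat together with KDEL receptors returns ER residents from the Golgi. Cells that secrete much protein carry a heavy load of this traffic, and the load of QBC-939 cells was not measured here.

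More of these genes rose than fell after Bmi1 shRNA. Of the 51 tested members 22 rose, 6 fell and 23 did not pass (limma fitted to log2(FPKM + 1), with a threshold of 0.05 on p-values adjusted by Benjamini and Hochberg over all 11016 tested rows). That is 43.1% higher and 11.8% lower, where 28.6% of all tested rows were called higher and 28.5% lower. The median log2 fold change was 0.24 over the tested members and -0.02 over all tested rows. All 3 Bmi1 shRNA libraries lay above all 3 control libraries for 28 members and below them for 6, while 32.3% and 33.1% of all tested rows did so, 65.4% in all. The steepest rises were those of SEC62 and COPB1, and the steepest falls those of COPG1 and SEC61A1. With the 6 SRP genes added, 26 of 57 rose and 6 fell.

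The direction went with the GC content of the transcript, among the members as among all genes. Across the 51 members, GC content and log2 fold change had a Spearman's rho of -0.52, and across 10261 tested rows with a known transcript it was -0.47; the points are genes that share the same 6 libraries, not replicates. The members had a median GC content of 44.9%, against 50.4% for all tested rows. When all tested rows were parted by GC content into 3 equal groups, 29 members fell into the group up to 45.6% GC, and 16 of them rose and 1 fell, beside 56.0% higher and 6.40% lower over all rows of that group. In the middle group 4 of 15 members rose and 4 fell (17.6% and 38.9% of all rows), and above 55.3% GC 2 of 7 rose and 1 fell (12.7% and 43.7%). The members' share of rises in the group of lowest GC content was thus close to that of other genes there. With the trend of GC content and transcript length removed from each library, 13 members were higher, 6 lower and 32 not called, where 20.7% and 17.2% of all rows were called, and the members' median was 0.08. Of the 22 that rose in the deposited values, 10 were also higher in that fit, 11 were not called and 1, SPCS3, was lower. Of the 6 that fell, 4 were also lower. The part of GC content in the single results was not tested. Both values are given below for the called members and SRP genes, as the log2 fold change in the deposited values and as the value with the trend removed. Counts by step and list stand beside the shares of all tested rows, 28.6% higher and 28.5% lower. With the trend removed these shares were 20.7% and 17.2%.

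**Figure D1:**
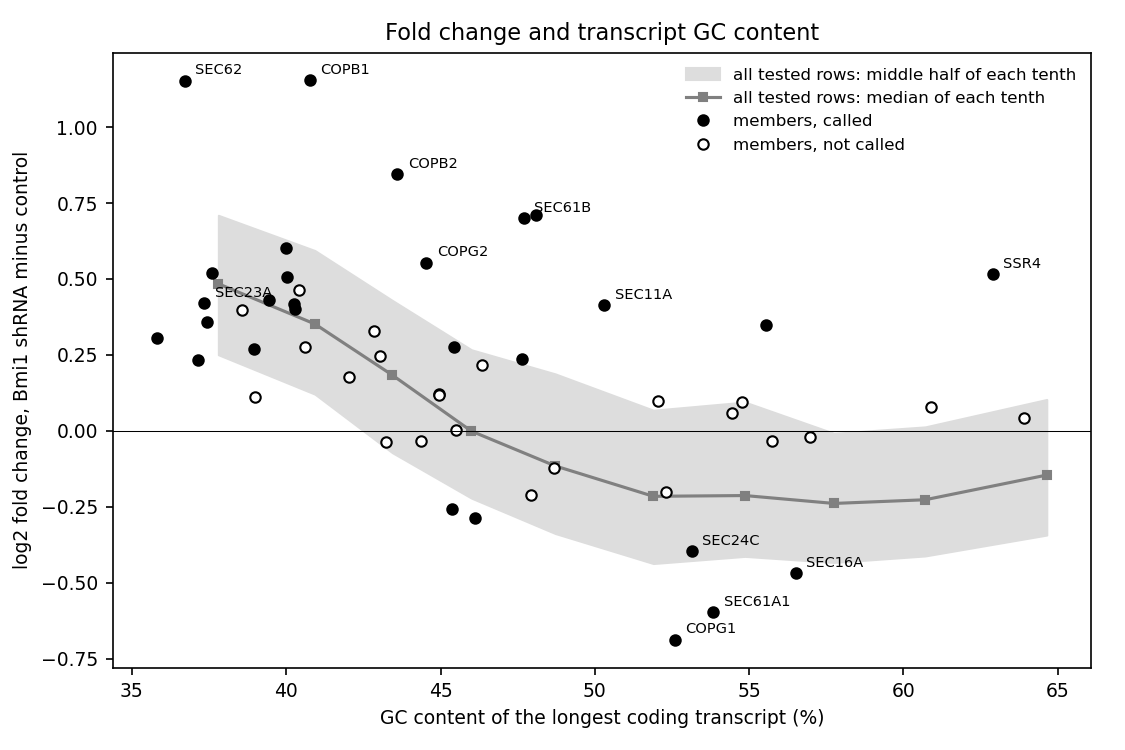
Log2 fold change (Bmi1 shRNA minus control, on FPKM + 1) against GC content of the longest coding transcript for the 51 tested members (points; filled where called), with the median and middle 50% band of all tested rows in 10 groups of equal size by GC content. SEC62, COPB1, COPB2, SEC61B and SSR4 lie above the band, and COPG1, SEC61A1 and SEC16A below it.

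**Figure D2:**
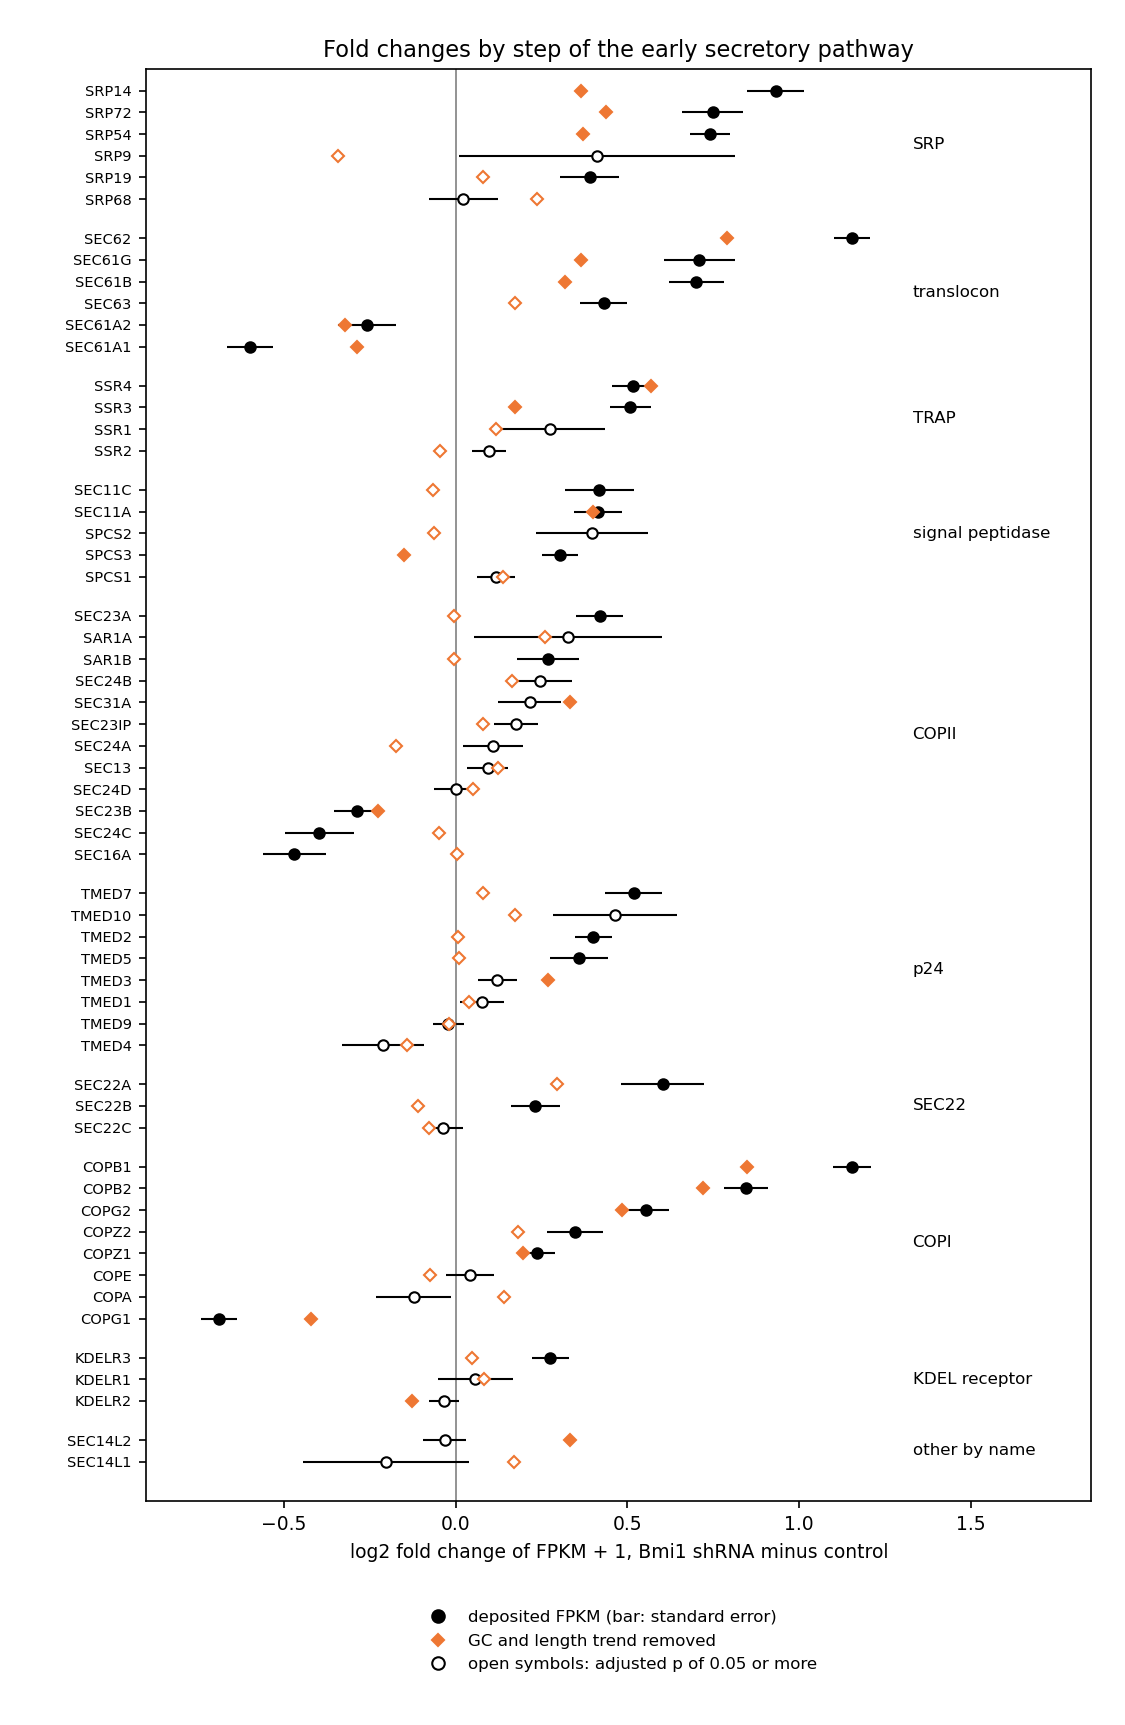
Log2 fold change with its standard error for each tested member and SRP gene, by step (black circles), and the value once the trend of GC content and length was removed (orange diamonds); open symbols mark an adjusted p of 0.05 or more. SEC62, SEC61B, SEC61G, COPB1, COPB2 and SSR4 stay to the right in both fits, SEC61A1 and COPG1 to the left, and TMED2, TMED5, TMED7, SEC23A, SEC16A and SEC24C lie within 0.1 of 0 with the trend removed.

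The promoters of the members often held 1 sequence that the choice by name did not use. The letters TGACGTGG, a form of the element to which the unfolded protein response factors XBP1 and ATF6 and factors of the CREB3 family can bind, were searched on both strands from 250 bases before to 50 after each RefSeq start (GRCh38.p14). They stood in 11 of 52 members with a listed promoter (21.2%), in 1.22% of 7812 tested genes and in 0.927% of 27305 genes in the table, a gene counting once if any of its starts had a match. The shorter core ACGTGG, which lies inside TGACGTGG and is counted with it, stood in 29 of 52 members (55.8%) and in 16.4% of tested genes. The ER stress element ERSE and the CRE sequence TGACGTCA were in none of the 52, and in 0.166% and 3.92% of tested genes. The CCAAT box was in 42.3% of members and 43.4% of tested genes. No entry was listed for KDELR2, SEC11B, SEC22B2, SEC22B4P, SEC24D, SPCS1, TMED4 and TMED9. The matches of 10 members and of SRP19 are shown 5′ to 3′ on the strand of the gene with up to 12 bases on each side, in capitals the matched letters (CCACGTCA is TGACGTGG read on the other strand), because they are shared by genes of the translocon, the TRAP complex and both coats.
SEC62, chr3:169966778-169966806, plus strand: cccctcctcgctCCACGTCAgagggaacc
SSR3, chr3:156554147-156554178, minus strand: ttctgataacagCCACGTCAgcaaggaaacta
SSR4, chrX:153794527-153794558, plus strand: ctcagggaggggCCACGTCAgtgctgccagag
COPB1, chr11:14499840-14499871, minus strand: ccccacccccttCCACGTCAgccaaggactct
COPB2, chr3:139389824-139389855, minus strand: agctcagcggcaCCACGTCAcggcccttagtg
KDELR3, chr22:38468038-38468069, plus strand: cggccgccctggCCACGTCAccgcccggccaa
SEC23A, chr14:39103232-39103251, minus strand: gtcccctcctctTGACGTGG
SEC24A, chr5:134648594-134648625, plus strand: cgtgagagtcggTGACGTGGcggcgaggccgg
COPA, chr1:160343238-160343257, minus strand: ggagagggtcgcTGACGTGG
SEC16A, chr9:136484718-136484737, minus strand: ttggccctggtgCCACGTCA
SRP19, chr5:112861163-112861194, plus strand: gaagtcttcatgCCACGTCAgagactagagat

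The matches of COPA and SEC16A lie in the first 50 transcribed bases, that of SEC23A spans the start, and the others shown lie upstream. COPB2 has a second match, downstream of the same start. Of the 10 tested members with a match 7 rose (SEC62, SSR3, SSR4, COPB1, COPB2, KDELR3 and SEC23A), SEC16A fell, and SEC24A and COPA did not pass. Their median log2 fold change was 0.46 at a median GC content of 42.2%, and that of the 36 tested members with a promoter and no match 0.24 at 45.2%, of which 15 rose and 5 fell. With the trend removed 5 of the 10 were higher and none lower (median 0.16), and of the 36, 8 were higher and 5 lower (0.08). Over all 95 tested genes with a match 37.9% were called higher and 25.3% lower. These counts describe the lists, and the difference between them was not tested.

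At the targeting step 4 of the 6 SRP genes rose and 2 did not pass; their median log2 fold change was 0.58 at a median GC content of 41.3%. SRP54, the GTPase that reads the signal sequence, measured 4.65, 4.71 and 4.86 FPKM in control and 8.77, 8.89 and 8.13 FPKM with Bmi1 shRNA (log2 fold change 0.74, SE 0.058; limma, adjusted p = 0.000329; 0.37 with the trend removed). SRP14, part of the domain that pauses elongation, measured 26.7, 27.9 and 26.9 FPKM in control and 54.2, 57.8 and 46.7 FPKM with Bmi1 shRNA (0.93; 0.37 with the trend removed). SRP72, a scaffold of the particle, went from 2.31, 2.72 and 2.23 FPKM to 4.51, 4.44 and 5.28 FPKM (0.75; 0.44 with the trend removed). For these 3 genes no Bmi1 shRNA library overlapped a control library, and each was called in both fits. SRP19, an assembly factor, rose from 2.32 ± 0.0721 to 3.36 ± 0.426 FPKM (SD, n = 3 each; log2 fold change 0.39), with 0.08 and no call once the trend was removed. SRP68, the partner of SRP72, had 6.89 ± 0.626 and 7.03 ± 0.873 FPKM and did not pass (limma, adjusted p = 0.860).

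SRP9, which pairs with SRP14, stood apart in 1 library. It measured 52.3, 43.9 and 48.0 FPKM in control and 31.5, 94.2 and 88.1 FPKM with Bmi1 shRNA, so that Bmi1 shRNA replicate 1 was the lowest of the 6 libraries and the other two the highest (log2 fold change 0.41; limma, adjusted p = 0.410). Without that library the log2 fold change was 0.91 (limma, adjusted p = 0.00237), and once the trend of GC content and length was removed it was -0.34. The pseudogene SRP9P1, which can share its reads, had 5.93, 6.58 and 5.26 FPKM in control and 10.2, 12.3 and 10.1 FPKM with Bmi1 shRNA. Of the SRP receptor, SRPRA fell from 52.1 ± 2.36 to 40.2 ± 2.40 FPKM (limma, adjusted p = 0.00370; -0.11 and not called with the trend removed), and SRPRB (19.2 ± 1.65 and 19.7 ± 2.35 FPKM) did not pass.

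At the translocon all 6 members passed, and the subunits of the SEC61 channel went opposite ways. SEC61A1, the pore-forming alpha subunit, measured 129, 141 and 136 FPKM in control and 92.2, 82.3 and 93.2 FPKM with Bmi1 shRNA (log2 fold change -0.60, SE 0.067; limma, adjusted p = 0.000795). SEC61B, the beta subunit, measured 129, 106 and 121 FPKM in control and 195, 200 and 186 FPKM with Bmi1 shRNA (0.70, SE 0.080; adjusted p = 0.000832). SEC61G, the gamma subunit, measured 78.2, 59.8 and 69.0 FPKM in control and 118, 115 and 105 FPKM with Bmi1 shRNA (0.71, SE 0.10; adjusted p = 0.00190). The groups did not overlap for any of the 3. Once the trend of GC content and length was removed, the values were -0.29, 0.32 and 0.37, each still called (limma, adjusted p = 0.00710, 0.00705 and 0.0120).

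In other words, transcripts of the alpha and beta subunits were at like levels per length in control and not with Bmi1 shRNA. The ratio of SEC61B to SEC61A1 FPKM was 1.003, 0.755 and 0.892 in control and 2.11, 2.43 and 1.999 with Bmi1 shRNA. That of SEC61G to SEC61A1 went from 0.512 ± 0.0907 to 1.27 ± 0.135 (SD, n = 3 each). In all 4 log2 ratios were compared between the groups, these and the paralog ratios of SEC23 and COPG below. Exact permutation of the libraries (two-sided) gave p = 0.1 for each, the smallest that 3 against 3 allows, also after Benjamini-Hochberg adjustment over the 4. The SEC61 ratios were chosen after their values were seen. The rarer alpha paralog SEC61A2 went from 1.43 ± 0.102 to 1.04 ± 0.179 FPKM and was called lower (log2 fold change -0.26; limma, adjusted p = 0.0393; -0.32 and still called with the trend removed), with 1.32, 1.52 and 1.46 FPKM in control and 1.06, 0.855 and 1.21 FPKM with Bmi1 shRNA. Its call ended with no filter on low values (limma, adjusted p = 0.0980), and on leaving out any 1 library except Bmi1 shRNA replicate 3 (0.0551 to 0.111). It made up 1.05% of the summed alpha FPKM in control and 1.15% with Bmi1 shRNA.

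SEC62 and SEC63 serve chains that enter the ER after their synthesis, and both rose. SEC62 measured 4.25, 4.31 and 4.45 FPKM in control and 10.7, 11.2 and 10.7 FPKM with Bmi1 shRNA, a 2.51-fold rise in mean FPKM (log2 fold change 1.15, SE 0.052; limma, adjusted p = 0.000158). At 36.7% GC its value with the trend removed was 0.79, also called. SEC63, its J-domain partner, rose from 3.65 ± 0.285 to 5.26 ± 0.225 FPKM (SD, n = 3 each; 0.43, and 0.17 and not called with the trend removed). Of 6 further proteins at the translocon 3 rose, 1 fell and 2 did not pass. TRAM1, a membrane protein beside the channel, rose from 9.84 ± 0.819 to 18.6 ± 0.832 FPKM and CCDC47, of the multipass translocon, from 10.1 ± 0.911 to 15.7 ± 0.531 FPKM, with log2 fold changes of 0.85 and 0.60, and 0.41 and 0.37 and still called with the trend removed. TRAM2 fell from 11.2 ± 0.542 to 7.52 ± 0.679 FPKM and was not called in that fit.

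**Figure D3:**
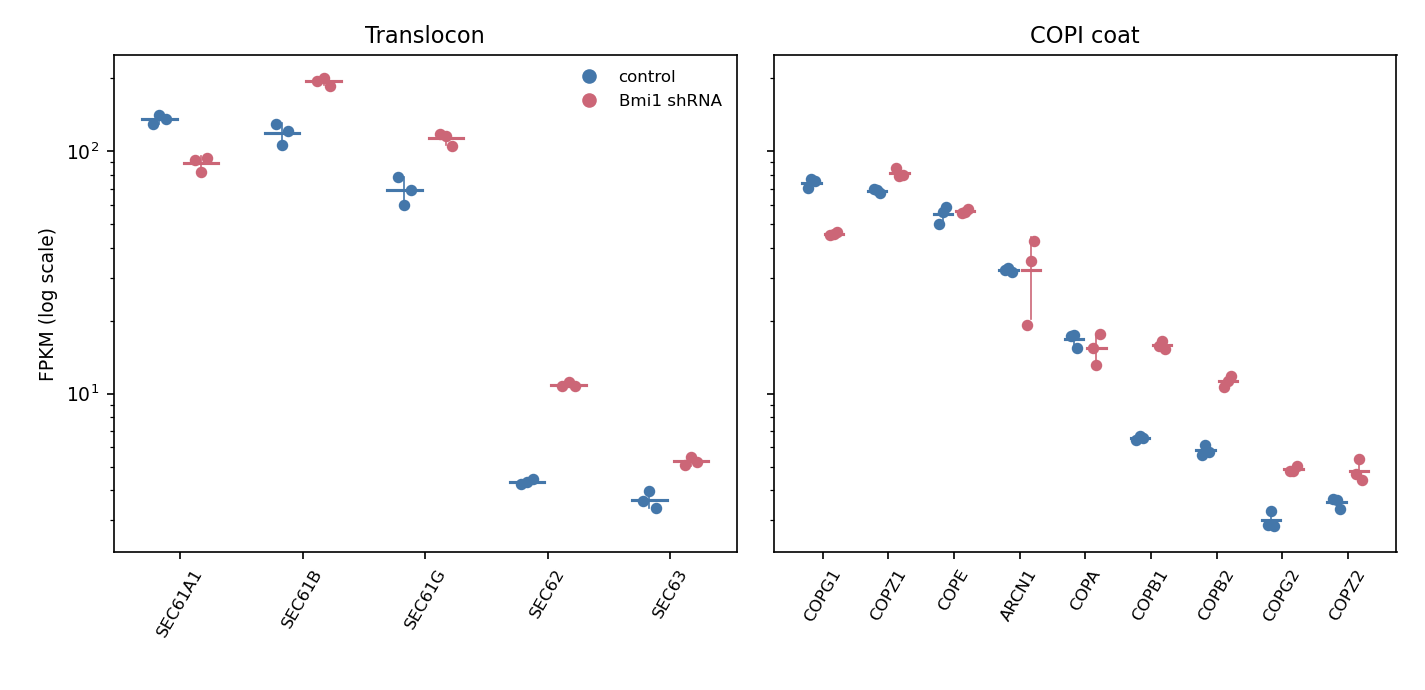
FPKM (log axis) of translocon genes and COPI coat genes in each control library (blue) and Bmi1 shRNA library (red), with the mean (horizontal line) and SD (vertical line), n = 3 a group. SEC61A1 and COPG1 are lower in every Bmi1 shRNA library than in every control library, and SEC61B, SEC61G, SEC62, SEC63, COPB1 and COPB2 higher.

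Of the 4 subunits of TRAP, 2 rose and 2 did not pass. SSR4 (the delta subunit) measured 41.0, 36.1 and 37.9 FPKM in control and 53.9, 56.0 and 55.6 FPKM with Bmi1 shRNA (log2 fold change 0.52, SE 0.061; limma, adjusted p = 0.000932). At 62.9% GC, in the GC group where 43.7% of rows were called lower, its value with the trend removed was 0.57. SSR3 (gamma) measured 26.8, 24.7 and 27.0 FPKM in control and 38.3, 38.6 and 36.0 FPKM with Bmi1 shRNA (0.51; 0.17 and still called with the trend removed). SSR2 (beta) had 33.8 ± 0.840 and 36.3 ± 0.707 FPKM (SD, n = 3 each) and did not pass, although its groups did not overlap. SSR1 (alpha) ranged from 4.003 to 4.17 FPKM in control and from 4.01 to 6.91 FPKM with Bmi1 shRNA, and was called without Bmi1 shRNA replicate 1 (limma, adjusted p = 0.0407).

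Of 5 tested genes of signal peptidase 3 rose and 2 did not pass, and SEC11A alone of the 3 was also called higher with the trend removed. SEC11A, a catalytic subunit, measured 36.1, 33.1 and 35.5 FPKM in control and 44.7, 50.9 and 45.1 FPKM with Bmi1 shRNA (log2 fold change 0.41; limma, adjusted p = 0.00317; 0.40 with the trend removed). SEC11C, the alternative catalytic subunit, measured 6.90, 5.78 and 7.44 FPKM in control and 9.11, 10.1 and 8.63 FPKM with Bmi1 shRNA (0.42; -0.07 with the trend removed). The share of SEC11C in the sum of both was 16.1% ± 1.24 in control and 16.5% ± 0.441 with Bmi1 shRNA (SD, n = 3 each), a difference within the spread of the libraries.

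SPCS3, a subunit that holds the complex together, measured 4.65, 4.599 and 4.41 FPKM in control and 5.79, 5.84 and 5.95 FPKM with Bmi1 shRNA, a log2 fold change of 0.30. At 35.8% GC, the lowest of the tested members, it was lower with the trend removed (-0.15; limma, adjusted p = 0.0432), so its direction is not settled. SPCS1 (16.9 ± 0.581 and 18.4 ± 0.595 FPKM) did not pass. SPCS2 measured 14.03, 11.4 and 9.10 FPKM in control and 15.7, 17.3 and 13.1 FPKM with Bmi1 shRNA and did not pass (limma, adjusted p = 0.0768). The pseudogene SPCS2P4, which can take its reads, stood at 9.01, 14.7 and 28.9 FPKM and at 28.4, 18.4 and 32.5 FPKM, so the level of SPCS2 is uncertain. SEC11B, at 0.315 ± 0.106 and 0.457 ± 0.306 FPKM, was not tested.

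The oligosaccharyl transferase, which attaches sugar to chains as they pass the channel, also changed in both directions. Among its 11 tested genes, 7 rose, 3 fell and 1 was not called; the fit with the trend removed called 4 higher and 3 lower. Its genes TMEM258 (37.2 ± 2.82 to 84.5 ± 3.65 FPKM) and OST4 (257 ± 23.3 to 544 ± 36.7 FPKM) rose, and DDOST (99.2 ± 1.90 to 73.2 ± 4.23 FPKM) and RPN2 (134 ± 2.07 to 109 ± 2.64 FPKM) fell (SD, n = 3 each). With the trend removed TMEM258 (1.17), OST4 (0.86) and DDOST (-0.26) kept their calls and RPN2 was not called. Named outside the rule, STT3B, a catalytic subunit, rose from 8.44 ± 0.159 to 13.5 ± 1.48 FPKM and was called in both fits. Its catalytic paralog STT3A went the other way, from 42.2 ± 2.40 to 32.8 ± 2.23 FPKM. STT3A was called lower in both fits (-0.35, and -0.40 with the trend removed). RPN1 (190.3 ± 13.9 and 178 ± 14.7 FPKM), also outside the rule, did not pass. OSTC rose from 26.5 ± 3.03 to 36.4 ± 1.61 FPKM but was called lower with the trend removed (-0.33; limma, adjusted p = 0.00772), so its direction is not settled. Of 16 genes for the insertion of tail-anchored proteins and the EMC insertase 4 rose and 5 fell. EMC2 rose from 0.916 ± 0.0568 to 2.12 ± 0.281 FPKM and EMC1 fell from 5.11 ± 0.221 to 3.45 ± 0.241 FPKM. EMC2 had -0.13 and no call once the trend was removed. It averaged below 1 FPKM in control and passed the filter through its Bmi1 shRNA libraries, which limits its call.

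In the COPII coat 2 of the 12 tested members rose, 3 fell and 7 were not called. The SEC23 paralogs, which make up the inner layer and activate SAR1, went opposite ways. SEC23A measured 2.66, 2.56 and 2.29 FPKM in control and 3.77, 3.47 and 3.82 FPKM with Bmi1 shRNA (log2 fold change 0.42, SE 0.069; limma, adjusted p = 0.00283). SEC23B measured 25.7, 25.6 and 24.4 FPKM in control and 19.9, 19.4 and 22.2 FPKM with Bmi1 shRNA (-0.29, SE 0.066; adjusted p = 0.0105). The groups did not overlap for either gene, and the share of SEC23A in their sum went from 9.02% ± 0.401 to 15.2% ± 0.633. With the trend removed SEC23A, at 37.3% GC, had a value of -0.0039 and was not called, and SEC23B, at 46.1% GC, remained lower at -0.23. The log2 ratio of SEC23A to SEC23B, taken on deposited FPKM without a pseudocount, changed by 0.86. The difference between the paralogs with the trend removed was 0.22, but on log2(FPKM + 1), so it is not comparable with 0.86.

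SEC16A, the scaffold of ER exit sites, measured 18.4, 20.8 and 19.3 FPKM in control and 13.3, 12.6 and 15.6 FPKM with Bmi1 shRNA (log2 fold change -0.47; limma, adjusted p = 0.00532). SEC24C, a cargo adaptor, measured 21.2, 20.6 and 17.3 FPKM in control and 14.3, 13.6 and 16.3 FPKM with Bmi1 shRNA (-0.40; adjusted p = 0.0147, and 0.0501 without control replicate 2). Neither overlapped between the groups in the deposited values, but both lost their call with the trend removed (0.0034 and -0.05). SEC24C made up 66.1% ± 1.82 of the summed FPKM of the 4 SEC24 paralogs in control and 57.1% ± 0.753 with Bmi1 shRNA. The others did not pass: SEC24A had 3.29 ± 0.230 and 3.64 ± 0.420 FPKM, SEC24B 2.26 ± 0.272 and 2.86 ± 0.309 FPKM, and SEC24D 4.52 ± 0.261 and 4.53 ± 0.247 FPKM.

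SAR1B measured 1.49, 1.56 and 1.64 FPKM in control and 1.97, 1.86 and 2.47 FPKM with Bmi1 shRNA (log2 fold change 0.27; limma, adjusted p = 0.0391), with -0.0059 once the trend was removed. Its call ended with no filter on low values (adjusted p = 0.0944), with libraries scaled to 1 total (0.0950), with quantile normalization (0.0712) and on leaving out any 1 library except Bmi1 shRNA replicate 2 (0.0633 to 0.102). SAR1A varied widely within the groups, from 4.62 to 7.73 FPKM in control and from 6.49 to 12.6 FPKM with Bmi1 shRNA, and did not pass. The outer coat genes SEC13 (23.5 ± 0.465 and 25.2 ± 1.44 FPKM) and SEC31A (4.51 ± 0.171 and 5.43 ± 0.758 FPKM) did not pass, nor did SEC23IP, which binds SEC23 (4.45 ± 0.102 and 5.17 ± 0.373 FPKM). For all 3 every Bmi1 shRNA library was above every control library, and SEC31A was called higher with the trend removed (0.33; limma, adjusted p = 0.0254). SEC16B and SEC31B stayed below 0.2 FPKM in every library.

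Among 16 genes of cargo exit from the ER, 4 rose, 5 fell and 7 were not called. The receptor LMAN1, which carries glycoproteins out of the ER, rose from 4.20 ± 0.241 to 9.13 ± 0.330 FPKM (limma, adjusted p = 0.000247), and MCFD2, the protein it works with, fell from 15.7 ± 0.994 to 12.1 ± 1.51 FPKM (0.0191). MCFD2 lost its call when any 1 library other than control replicate 1 or Bmi1 shRNA replicate 3 was left out (limma, adjusted p from 0.0535 to 0.0630). ERGIC2 rose from 1.74 ± 0.138 to 5.14 ± 0.1198 FPKM and SURF4, a cargo receptor, fell from 128 ± 15.5 to 92.4 ± 4.75 FPKM. With the trend removed LMAN1 (0.69) and ERGIC2 (0.71) were still higher and MCFD2 (-0.40) lower, and SURF4 was not called.

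Of the 8 tested TMED genes, which encode the p24 cargo receptors of early transport vesicles, 3 rose and 5 did not pass. TMED7 measured 9.89, 9.72 and 10.4 FPKM in control and 16.6, 14.3 and 13.5 FPKM with Bmi1 shRNA (log2 fold change 0.52). TMED2 measured 27.9, 26.0 and 26.6 FPKM in control and 36.8, 34.6 and 35.7 FPKM with Bmi1 shRNA (0.40). TMED5 measured 3.49, 3.31 and 2.77 FPKM in control and 4.26, 4.63 and 4.19 FPKM with Bmi1 shRNA (0.36). The groups did not overlap for any of them, yet with the trend removed the values were 0.08, 0.01 and 0.01 and none was called; the 3 transcripts have 37.6%, 40.3% and 37.4% GC.

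TMED10 measured 19.7, 19.7 and 31.8 FPKM in control and 33.4, 31.0 and 32.6 FPKM with Bmi1 shRNA, so that control replicate 3 lay with the Bmi1 shRNA libraries. It did not pass with all libraries (log2 fold change 0.46; limma, adjusted p = 0.0665) and did without control replicate 3 (0.69; adjusted p = 0.00241). TMED9, the most abundant of them per length, had 139 ± 2.95 and 137 ± 3.14 FPKM (SD, n = 3 each) and did not pass. With quantile normalization it was called lower (-0.18, limma, adjusted p = 0.0140). TMED1, TMED3 and TMED4 did not pass, and TMED3 was called higher with the trend removed (0.27). TMED6 and TMED8 were below 1 FPKM on average and not tested. TMED7 shares its span with the readthrough row TMED7-TICAM2 (1.77 to 3.67 FPKM in control and 1.25 to 3.67 FPKM with Bmi1 shRNA); with its FPKM added, a step chosen after the data were seen, TMED7 was still called.

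Of 3 tested SEC22 genes, SNAREs of ER and Golgi vesicles or their relatives, 2 rose. SEC22A measured 1.29, 1.45 and 0.823 FPKM in control and 2.49, 2.12 and 2.29 FPKM with Bmi1 shRNA (log2 fold change 0.60; limma, adjusted p = 0.00609; 0.29 and not called with the trend removed). SEC22B measured 9.16, 8.39 and 8.39 FPKM in control and 10.5, 10.99 and 9.52 FPKM with Bmi1 shRNA (0.23; adjusted p = 0.0309), with -0.11 once the trend was removed. The call of SEC22B ended with no filter on low values (adjusted p = 0.0574), with libraries scaled to 1 total (0.0932) and on leaving out any 1 library except control replicate 1 or Bmi1 shRNA replicate 3 (0.0835 to 0.0928). SEC22C (3.12 ± 0.0835 and 3.02 ± 0.117 FPKM) did not pass. SEC22B2, whose name marks it as a copy of SEC22B and which can share its reads, was below the filter, with 0.105 ± 0.0540 and 0.668 ± 0.280 FPKM; SEC22B4P was also below it.

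Of 15 tested tethers and SNAREs between ER and Golgi 4 rose (26.7%), 3 fell (20.0%) and 8 did not pass. Over all tested rows the shares were 28.6% and 28.5%. The tether USO1 (p115) rose from 2.90 ± 0.558 to 7.20 ± 0.170 FPKM and RINT1, of the tether that receives COPI vesicles at the ER, from 2.61 ± 0.0307 to 4.98 ± 0.290 FPKM. Both were called with the trend removed (0.72 and 0.45), where 4 genes of the list were higher and none lower. The Golgi SNARE genes BET1L (24.9 ± 2.78 to 18.2 ± 0.794 FPKM) and GOSR1 (5.66 ± 0.273 to 4.45 ± 0.229 FPKM) fell and were not called with the trend removed.

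In the COPI coat 5 of 8 members rose, 1 fell and 2 did not pass. COPB1, the beta subunit, measured 6.45, 6.67 and 6.54 FPKM in control and 15.7, 16.5 and 15.3 FPKM with Bmi1 shRNA, a 2.41-fold rise (log2 fold change 1.15, SE 0.055; limma, adjusted p = 0.000165; 0.85 with the trend removed). COPB2, the beta prime subunit, measured 5.60, 6.13 and 5.75 FPKM in control and 10.7, 11.3 and 11.8 FPKM with Bmi1 shRNA, a 1.93-fold rise (0.84; 0.72 with the trend removed). Both were called in every fit run.

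The gamma paralogs went opposite ways. COPG1 measured 70.5, 77.0 and 75.1 FPKM in control and 45.1, 45.6 and 46.2 FPKM with Bmi1 shRNA (log2 fold change -0.69, SE 0.053; limma, adjusted p = 0.000316). COPG2 measured 2.87, 3.28 and 2.85 FPKM in control and 4.77, 4.79 and 5.03 FPKM with Bmi1 shRNA (0.55, SE 0.066; adjusted p = 0.000979). With the trend removed the values were -0.42 and 0.49, both called. The log2 ratio of COPG2 to COPG1, taken on deposited FPKM without a pseudocount, changed by 1.40. The difference between the values with the trend removed was 0.91, but on log2(FPKM + 1), so it is not comparable with 1.40. The share of COPG2 in the summed gamma FPKM went from 3.88% ± 0.217 to 9.62% ± 0.163 (SD, n = 3 each), while that sum went from 77.2 ± 3.56 to 50.5 ± 0.679 FPKM. COPG1 therefore remained the main gamma transcript in both groups.

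**Figure D4:**
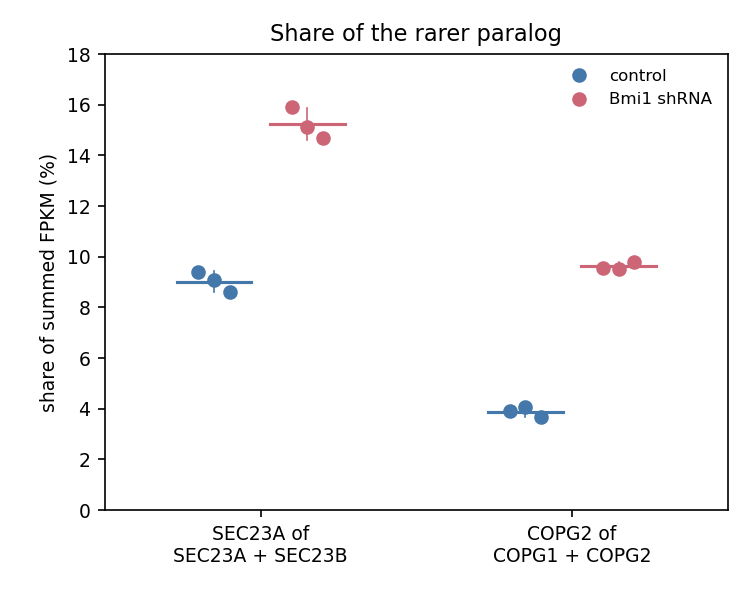
Share of the rarer paralog in the summed FPKM of the pair, in percent, for SEC23A (of SEC23A and SEC23B) and COPG2 (of COPG1 and COPG2) in each library, with mean and SD (n = 3 a group). The Bmi1 shRNA libraries lie between 14.7% and 15.9% for SEC23A and between 9.498% and 9.81% for COPG2, above all control libraries.

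COPZ1, the zeta subunit, rose from 68.7 ± 1.11 to 81.2 ± 3.63 FPKM (log2 fold change 0.24; limma, adjusted p = 0.00869; 0.20 and called with the trend removed; 0.0663 with quantile normalization). Its paralog COPZ2 rose from 3.56 ± 0.196 to 4.81 ± 0.512 FPKM (0.35; 0.18 and not called with the trend removed). COPA (alpha; 16.7 ± 1.17 and 15.4 ± 2.21 FPKM) and COPE (epsilon; 54.9 ± 4.43 and 56.4 ± 1.27 FPKM) did not pass. ARCN1, the delta subunit, which the name rule leaves out, had 32.3 ± 0.517 and 32.3 ± 11.9 FPKM and did not pass; Bmi1 shRNA replicate 1, at 19.2 FPKM, was the lowest of the 6 libraries, and without it the log2 fold change went from -0.07 to 0.25 (limma, adjusted p = 0.0661). Over the coat subunits COPA, COPB1, COPB2, ARCN1, COPE, COPG1 and COPZ1, a set chosen after the values were seen, the highest FPKM was 12.6 to 13.1 times the lowest in control libraries and 6.71 to 8.005 times with Bmi1 shRNA. COPB2 was the lowest in every library; the highest was COPG1 in control and COPZ1 with Bmi1 shRNA.

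Of the 10 other genes that work with COPI 2 rose, 6 fell and 2 did not pass, at a median GC content of 54.8%. GBF1, the exchange factor that activates ARF1 for coat assembly, fell from 11.8 ± 0.513 to 7.00 ± 1.02 FPKM (log2 fold change -0.69; limma, adjusted p = 0.00180) and was also lower with the trend removed (-0.27). ARFGAP3, of the GTPase-activating proteins that end the ARF1 cycle, rose from 4.73 ± 0.322 to 6.96 ± 0.444 FPKM (0.47; 0.39 with the trend removed), and ARFGAP1 fell from 7.26 ± 0.334 to 5.51 ± 0.195 FPKM (-0.34; -0.03 with the trend removed). ARF4 rose from 50.0 ± 1.04 to 64.8 ± 6.55 FPKM and had -0.20 and no call with the trend removed. Named outside the rule, ARF1 (216 ± 8.90 to 178 ± 6.69 FPKM) and ARF3 (94.3 ± 1.68 to 77.4 ± 6.82 FPKM) fell. Neither was called with the trend removed.

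The KDEL receptors, which bind escaped ER chaperones in the Golgi, differed in call. KDELR3 measured 53.8, 51.1 and 52.2 FPKM in control and 66.8, 62.1 and 61.9 FPKM with Bmi1 shRNA (log2 fold change 0.28; limma, adjusted p = 0.00554), with 0.05 and no call once the trend was removed. KDELR1 (172 ± 8.45 and 181 ± 25.7 FPKM) and KDELR2 (86.7 ± 1.36 and 84.7 ± 1.25 FPKM) did not pass, and KDELR2 was called lower with the trend removed (-0.13; adjusted p = 0.0458). Per length KDELR1 was the most abundant of all members in control.

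The SEC14L genes match the name pattern but encode lipid-binding proteins outside these steps. SEC14L1 measured 3.45, 3.37 and 3.56 FPKM in control and 2.30, 2.02 and 4.85 FPKM with Bmi1 shRNA, so that Bmi1 shRNA replicate 3 was the highest of all libraries and the other two the lowest. It did not pass (log2 fold change -0.20) and did without that library (-0.50; limma, adjusted p = 0.00365). SEC14L2 (1.67 ± 0.0630 and 1.62 ± 0.108 FPKM) did not pass, with 0.33 and a call once the trend was removed. SEC14L4 and SEC14L5 were below 0.1 FPKM in every library.

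Of 8 tested factors known to act on secretory genes, several of which can bind the promoter letters shown above, 1 was called higher, 3 lower and 4 neither. CREB3L4 rose from 5.92 ± 0.167 to 7.89 ± 0.259 FPKM (limma, adjusted p = 0.00226). ATF6B fell from 28.0 ± 1.32 to 17.7 ± 2.49 FPKM (0.00265), as did BHLHA15, a factor of secretory cells, from 1.47 ± 0.320 to 0.630 ± 0.214 FPKM (0.00864). Their log2 fold changes were 0.36, -0.64 and -0.60, and 0.42, -0.37 and -0.89 with the trend removed, where each was called in the same direction. BHLHA15 averaged below 1 FPKM with Bmi1 shRNA and passed the filter through its control libraries, which limits its call. XBP1 had 236 ± 4.20 and 245 ± 44.4 FPKM and ATF6 3.21 ± 0.117 and 3.60 ± 0.172 FPKM; neither passed, and both are named outside the rule for the genes described. The level of unspliced and spliced XBP1 cannot be told apart in these values.

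Some members share part of their genomic span with a gene on the other strand. The sources used here do not give whether counting used strand, so reads from exons that overlap could not be told apart. By GENCODE 29 spans with introns included, and counting partners of at least 1 FPKM, the called genes with a shared span are SEC61A1 (RUVBL1 and MGLL), SSR4 (IDH3G), COPG2 (MEST), COPB2 (MRPS22), KDELR3 (DDX17), SEC61A2 (NUDT5), SEC16A (C9orf163), SRP19 (REEP5) and SAR1B (SEC24A). Whether their exons overlap was not examined. SEC22A shares its span with PDIA5 on its own strand.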

How the data were processed

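RNA of 6 samples was sequenced; the protocol in the labels names adipose material, which the sample labels do not, so the library steps are not settled. The authors deposited 1 table of FPKM values for 27238 named rows, with no counts or coordinates. The submitters' processing notes list HISAT2 2.0, StringTie 1.3.0 and Bowtie 0.12.2 without their roles. The notes name a mouse build although the samples are human, so the build is not settled. The column prefixes Sc and Sh were read as the scrambled and the Bmi1 shRNA samples, numbered as in their titles. At most 2.50% of low values shared the commonest ratio between libraries, so whole reads were not recoverable and count models were not used.

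Limma 3.58.1 (R 4.3.3) was fitted to log2(FPKM + 1), where 1 is the pseudocount. It took in 11016 rows whose mean reached 1 FPKM, with group as the sole term and a trend in the variance; fold changes on this scale understate those of low genes. GC content and length came from the longest coding transcript of GENCODE 29 (93.1% of tested rows and all 60 members); their trend was removed per library with natural splines (5 degrees of freedom each), which also removes any true change that goes with them. Promoters came from RefSeq. The steps were tested on simulated data. The members, lists and tests were chosen with earlier results of these data known. All members could be named, with library values for up to 3 called members a step in each direction and for paralogs that went both ways, and up to 2 genes a direction from each further list. Alternatives covered the pseudocount, filter, scaling, replicate number, GC trend and each library left out. A gene of the biliary marker list is not reported here.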

Additional observations from a re-analysis of the deposited data

How the results depend on the processing

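Over all tested rows 3152 genes were called higher and 3143 lower; a minimum mean of 5 FPKM, which tests 5641 rows, gave 1631 and 1847, removal of the GC content and length trend 2126 and 1762, and that with the replicate block 1690 and 1278. Members called higher and lower numbered 22 and 6; with the trend removed they were 13 and 6, and with the replicate block in that fit 10 and 2. The members' median of 0.24 was 0.25 with a pseudocount of 0.1, 0.15 with no filter, 0.16 when every library was scaled to sum to 1000000, 0.28 with upper quartile scaling, 0.20 with quantile normalization and 0.080 with the trend removed, with or without the block. With 1 library left out, the calls over all rows ranged from 2724 to 2982 higher and 2484 to 3140 lower, the members' calls from 21 to 22 higher and 4 to 7 lower, and their median from 0.18 to 0.28. Scaling to 1 total gave 2649 higher and 3708 lower over all rows and 20 and 6 members, and upper quartile scaling 3389 and 2838 over all rows and 25 and 6 members. BMI1 was called lower in every fit that tested it; the minimum mean of 5 FPKM left it out.

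Same-numbered libraries did not deviate together (correlations 0.00374, -0.0791 and -0.0234), and libraries of unlike number gave -0.0757 to 0.0998. These values show no large deviation shared by number, but they cannot show whether the replicates were made in pairs. With the replicate block alone 22 members were higher and 5 lower; SEC61A2 (limma, adjusted p = 0.0767) and SEC22B (0.0530) lost their call and SPCS2 gained one (0.0289).

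Signs turned with the trend removed, at the same values with the block, for SEC14L2 (0.33), SEC23A (-0.0039), COPE (-0.073), SEC24A (-0.17), SPCS2 (-0.062), COPA (0.14), SPCS3 (-0.15), SEC14L1 (0.17), SEC16A (0.0034), SAR1B (-0.0059), SSR2 (-0.045), SEC11C (-0.066), SEC22B (-0.11), SRP9 (-0.34), EMC2 (-0.13), ARF4 (-0.20), RPN1 (0.062), OSTC (-0.33) and ATF6 (-0.0089). Under scaling to 1 total they turned for TMED1 (-0.0066), KDELR1 (-0.032), COPE (-0.047), SEC24D (-0.080), SRP68 (-0.061), SRPRB (-0.050) and XBP1 (-0.054), under quantile normalization for KDELR1 (-0.10), COPE (-0.076), SEC24D (-0.00061) and XBP1 (-0.15), and under upper quartile scaling for KDELR2 (0.011) and TMED9 (0.022). With 1 library left out, values spanned 0 for KDELR1 (-0.0058 to 0.18), COPE (-0.023 to 0.090), SEC24D (-0.033 to 0.039), SRP68 (-0.063 to 0.087), SRPRB (-0.043 to 0.12), ARCN1 (-0.30 to 0.25) and XBP1 (-0.11 to 0.11), none of which was called in these fits. The cause was not tested. Among the named genes, quantile normalization added calls for RPN1 (-0.28), TMED9 (-0.18), KDELR2 (-0.15) and SEC23IP (0.18). Upper quartile scaling added calls for SEC23IP (0.21), SEC24B (0.28), SEC31A (0.25) and ATF6 (0.16). With SPCS2P4 added to SPCS2, an alternative chosen after seeing the data, SPCS2 had a log2 fold change of 0.53 at the threshold (limma, adjusted p = 0.04996). Read depth is unknown and limits the low rows most.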
